A study of Mus musculus with 6 samples.

Results

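The vesicle products of 1 red cell miRNA locus are described here: miR-451a, miR-144-3p and the opposite-arm product of the miR-144 hairpin, miR-144-5p. The first 2 were taken by their mature identifiers (MIMAT0001632 and MIMAT0000156), and the third as the locus on the same chromosome and strand within 80 bases of miR-144-3p (MIMAT0016988). They make up 3 of the 2110 mature miRNA loci that were counted. The series holds 6 small RNA libraries from vesicles, called exosomes in the labels, of mouse muscle, 3 young and 3 old. The sources used here do not give strain, genotype, exact ages, sex or the muscles sampled, and name no treatment for either group. Whether replicates were separate animals is not stated, so that p-values reflect library-to-library spread that could be technical alone.

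miR-144 and miR-451a are made from a single primary transcript that the erythroid factor GATA1 switches on, and both accumulate as red blood cells mature. Their hairpins leave the transcript through Drosha, but the next step differs. The miR-144 hairpin is cut by Dicer into a duplex with a 5p and a 3p arm, whereas the released miR-451a hairpin is too short for Dicer and is sliced by Argonaute 2 (Ago2), after which the remaining strand is trimmed. Mature red cells keep miR-451a in large amounts, so that it is widely used as a marker of red cell RNA in blood, tissue and vesicle preparations.

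The sequences are shown to locate each mature product in its hairpin. The hairpins are printed as annotated, which can reach beyond the precursor that Drosha releases, so that their lengths do not compare the precursors. In the mature sequences (RefSeq, build GRCm38.p6) the seed, bases 2 to 8, is in capitals, and in the hairpins the annotated mature products are in capitals.
miR-451a: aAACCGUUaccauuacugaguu
miR-144-3p: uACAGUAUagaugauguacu
miR-144-5p: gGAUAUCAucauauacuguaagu
Mir144 hairpin: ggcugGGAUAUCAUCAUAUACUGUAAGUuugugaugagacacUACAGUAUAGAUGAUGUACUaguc
Mir451a hairpin: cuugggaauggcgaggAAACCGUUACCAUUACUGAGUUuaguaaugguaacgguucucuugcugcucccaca

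The members share a place but no seed. All 3 lie on the plus strand of chromosome 11 in mm10, miR-144-5p at chr11:78073010-78073032, miR-144-3p at chr11:78073047-78073066 and miR-451a at chr11:78073186-78073207. The Mir144 and Mir451a hairpins are 99 bases apart. No other gene of GENCODE release M21 overlaps them except the miRNA gene Mir451b, which lies on the opposite strand of the Mir451a hairpin. The nearest gene that is not a miRNA, Eral1, ends 134 bases downstream on the minus strand. Among 1679 mature miRNAs of the RefSeq table, no other carries the seed of any member. With bases 2 to 7 alone, miR-101a-3p shares ACAGUA with miR-144-3p. Each member has a single locus that overlaps no other, so that the loss of reads at overlapping loci does not apply to them.

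The folded hairpins differed in where the mature product sits. In the minimum free energy fold (RNAfold), the 22-base miR-451a occupied positions 17 to 38 of its 72-base hairpin, with 17 bases paired and 4 bases making up the whole terminal loop. miR-144-5p had 20 of 23 bases paired and miR-144-3p 19 of 20, and neither reached into the 6-base loop of their hairpin. Of 251 tested loci whose RefSeq hairpin folded with 1 terminal loop, 246 (98.0%) had no base in the loop, and miR-451a was the only one with 4 or more. The annotated hairpin of miR-451a had 30 base pairs and that of miR-144 had 27, against a median of 31 over 192 such hairpins.

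The libraries held 904892 to 1706396 counts. Values are CPM, counts divided by a library size scaled by TMM (trimmed mean of M-values) and set to 1000000. They are shares of the counted pool, so that fewer red cell vesicles and less of a miRNA per vesicle cannot be told apart. Old replicate 1 had the lowest total and stood apart, with 35.4% of its counts at miR-21a-5p where the other libraries had 49.0% to 52.9%. Member values are therefore also given without it.

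miR-451a was the third most abundant of 347 tested loci, at 40543, 42805 and 42580 CPM in young replicates 1, 2 and 3 and at 41237, 41840 and 48304 CPM in old replicates 1, 2 and 3. Old replicate 3 was the highest, and the other 5 libraries lay within a narrow band in which young and old overlapped. miR-144-3p, the arm regarded as the guide, had 37, 36 and 36 counts in the young libraries, or 25.5, 21.7 and 23.1 CPM. In the old libraries it had 17, 48 and 44 counts, or 17.1, 34.4 and 34.2 CPM, so that old replicate 1 was the lowest of all 6 and the other 2 old libraries were the highest. miR-144-5p had 9, 13 and 26 counts in young (6.20, 7.82 and 16.7 CPM) and 11, 26 and 27 in old (11.1, 18.6 and 20.96 CPM). Here young replicate 3 lay within the old range, and young replicates 1 and 2 lay below every old library.

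**Figure D1:**
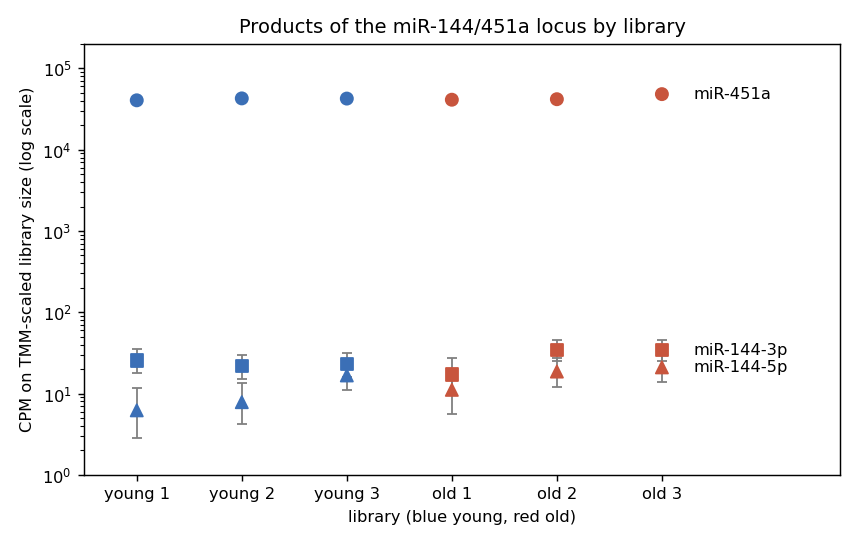
CPM of miR-451a (circles), miR-144-3p (squares) and miR-144-5p (triangles) in each library on a log axis, with young in blue, old in red and 95% exact Poisson intervals for counting error only. miR-451a lies near 42885 CPM on average, and both miR-144 arms lie at 34.4 CPM or less in all 6 libraries.

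Counting error alone is wide for the miR-144 arms. The 17 counts of miR-144-3p in old replicate 1 have a 95% exact Poisson interval of 9.99 to 27.4 CPM, which includes the value of each young library. The 40897 counts of miR-451a in the same library have an interval within 1% of the value. Intervals of this kind cover counting error only, since reads without molecular identifiers are not independent molecules.

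The age groups were compared to ask whether the locus gives more or less of its products in vesicles of old muscle, and none of the 3 members passed. By edgeR's quasi-likelihood test with Benjamini-Hochberg adjustment, 0 of 3 members passed an adjusted p of 0.05, 0 of 3 had an unadjusted p below 0.05 and DESeq2 also called 0. Of all tested loci, 4.32% passed in edgeR and 22.5% had an unadjusted p below 0.05. No member had groups that did not overlap, against 27.1% of tested loci. The log2 fold change of miR-451a, old over young, was 0.06 ± 0.16 (SE, adjusted p = 0.857, edgeR), with a 95% interval from 0.826-fold to 1.32-fold. A 2-fold difference in either direction lies outside that interval. miR-144-3p went from 23.4 ± 1.95 to 28.6 ± 9.89 CPM (SD, n = 3 each), with a log2 fold change of 0.31 ± 0.33 (adjusted p = 0.678, edgeR) and an interval from 0.762-fold to 2.01-fold. miR-144-5p went from 10.2 ± 5.64 to 16.9 ± 5.16 CPM (SD, n = 3 each), with 0.73 ± 0.46 (adjusted p = 0.368, edgeR) and an interval from 0.849-fold to 3.27-fold. A 2-fold rise of either miR-144 arm lies inside these intervals.

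Without old replicate 1, the log2 fold changes were 0.12 for miR-451a (adjusted p = 0.541), 0.57 for miR-144-3p (0.224) and 0.96 for miR-144-5p (0.151), all by edgeR. Over all 12 alternative fits the adjusted p ranged from 0.541 to 0.977, from 0.224 to 0.879 and from 0.151 to 0.711 in the same order. The value of miR-144-5p was 1.26 without young replicate 3, the young library with its highest level, and 0.47 without young replicate 1. The sign of miR-451a rested on old replicate 3, since its log2 fold change was -0.026 without that library.

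The products of the shared transcript were compared inside each library, where no scaling enters. For each count of miR-144-3p there were 1589, 1976 and 1844 counts of miR-451a in young replicates 1, 2 and 3. In old replicates 1, 2 and 3 there were 2406, 1217 and 1414. Old vesicles thus held both the highest and the lowest ratios, and the young values lay between them. The mean log2 ratio, with 0.5 added to each count, was 10.79 ± 0.16 over the 3 young and 10.62 ± 0.50 over the 3 old libraries (SD), a difference of -0.17 (two-sided exact permutation p = 0.6, where 0.1 is the smallest that 3 against 3 allows). Leaving out old replicate 1 made it -0.45, and leaving out old replicate 2 made it 0.029. In read counts the Ago2-cut product therefore exceeded the Dicer-cut guide arm by about 3 orders of magnitude in each library. No difference in that ratio between the groups was detectable with 3 libraries each. Whether both sequences enter a library equally well was not tested, so that the ratio of molecules in the vesicles is not known.

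With both arms of miR-144 summed, 330 counts stood against 357897 of miR-451a over all libraries. The excess ran from 790-fold in old replicate 2 to 1461-fold in old replicate 1, and young libraries had 1071-fold to 1452-fold. To place this against other transcripts, neighbouring hairpins on the same strand within 1000 bases were paired. Hairpins with an overlapping or repeated mature locus were left out. So were pairs in which either hairpin had no counts or neither had 300 counts. A pair without counts at 1 hairpin has no finite fold, so that the ranking below holds only among pairs with counts at both. The mean CPM of the higher hairpin was a median of 4.26-fold that of the lower over 27 such pairs, with quartiles of 1.65 and 65.8. Mir451a and Mir144, at 1084-fold, ranked first, and the next were Mir376c over Mir654 (455-fold) and Mir487b over Mir539 (316-fold), each with 1 count at the lower hairpin. Mir532 over Mir188 (285-fold) and Mir93 over Mir106b (127-fold) were the only others above 100-fold. A pair shows no fold much above the count of its higher hairpin, and in 17 of the 27 pairs, Mir451a and Mir144 included, that count was large enough for 1084-fold to be seen against 1 count. Mir376c (473 counts) and Mir487b (309 counts) were not among them. That all pairs share a transcript was not tested, and the ranking is a description with no p.

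**Figure D2:**
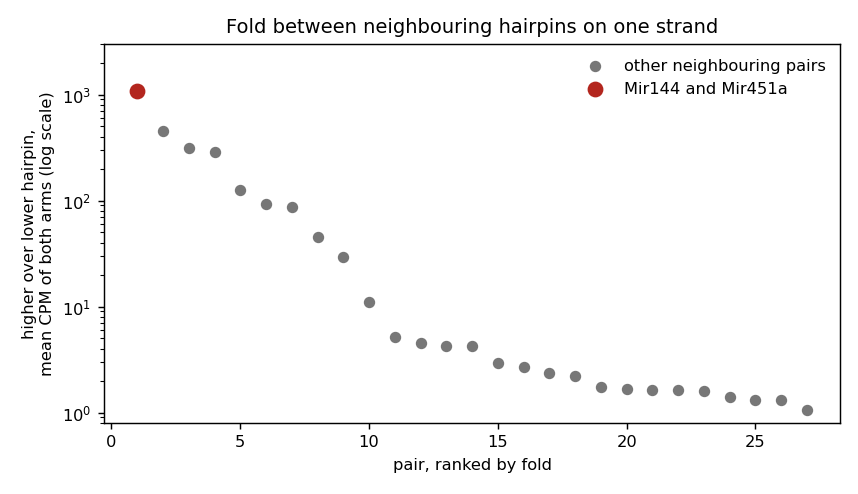
Each point is a pair of neighbouring hairpins on 1 strand, ranked on the x axis by the fold between their mean CPM over 6 libraries, on a log y axis. Mir451a over Mir144 (red) stands first at 1084-fold among 27 pairs with counts at both hairpins. Of these, 17 had enough counts at the higher hairpin to show such a fold.

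The arms of miR-144 were closer to each other than in most hairpins. The 5p arm took 19.6%, 26.5% and 41.9% of the hairpin's counts in young replicates 1, 2 and 3, on 46, 49 and 62 counts. In old replicates 1, 2 and 3 it took 39.3%, 35.1% and 38.0%, on 28, 74 and 71 counts. Their 95% exact binomial (Clopper-Pearson) intervals all overlapped, the widest from 21.5% to 59.4% in old replicate 1. The mean share was 29.3% ± 11.4 over the 3 young and 37.5% ± 2.13 over the 3 old libraries (SD, two-sided exact permutation p = 0.4). On the log2 scale the 3p to 5p ratio differed by -0.57 between old and young (exact permutation p = 0.4), a value that was -0.22 without young replicate 1 and -0.98 without young replicate 3. Pooled over libraries, the minor arm held 33.9% of the counts (interval 28.8% to 39.3%). That interval takes all reads as independent draws of a single share and leaves out the spread between libraries, which ran from 19.6% to 41.9%. Over 140 hairpins with both arms countable and at least 200 counts, the median minor arm held 1.42%, and 12 of them, Mir144 included, had 33.9% or more. Among the 69 of these with at most 2000 counts, the median was 2.97%.

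**Figure D3:**
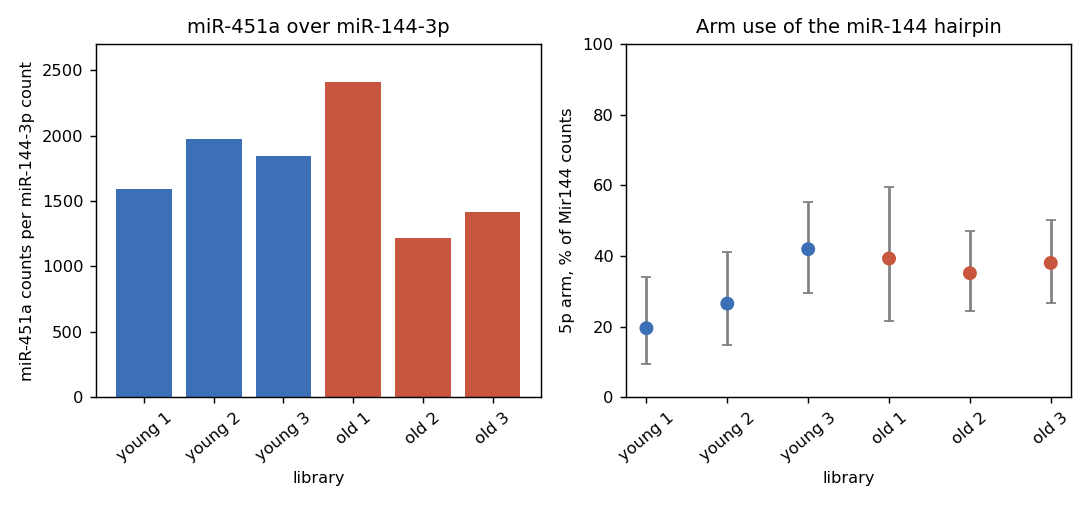
Left, miR-451a counts per miR-144-3p count in each library, from 1217 to 2406, with old libraries at both ends. Right, the 5p arm as a percentage of Mir144 counts with 95% exact binomial intervals, from 19.6% to 41.9%, with all intervals overlapping.

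miR-451a has no annotated opposite arm, as its known pathway forms no Dicer duplex. The locus closest to one, miR-451b, is annotated on the opposite strand of the same hairpin, 11 bases beyond miR-451a, and had 2, 1 and 2 counts in young and 1, 0 and 1 in old. These 7 counts compare with 357897 at miR-451a, or 1 in 51128. Counting took no account of strand, so reads of either strand at this place would be included in these 7.

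miR-451a varied little between libraries. Its coefficient of variation (SD over mean CPM) over the 6 libraries was 6.49%, the fourth lowest of 347 tested loci, whose median was 24.99%. miR-28a-5p (3.58%), miR-23a-3p (4.10%) and miR-669m-2-5p (5.10%) were lower, all named here after their values were seen. Among the 20 most abundant loci only miR-23a-3p varied less, and the median of these 20 was 17.3%. Within groups its chi-square against pure counting was nevertheless 243.7 per degree of freedom, so that counting error was a small part of its spread. The median of this statistic was 212.7 over the 4 loci within 2-fold of its level, itself included. miR-144-3p had a coefficient of variation of 26.8% and miR-144-5p 44.6%, against medians of 30.4% and 36.9% over the loci within 2-fold of their levels. For these arms the chi-square per degree of freedom was 1.92 and 3.21, against medians of 2.46 and 1.96 over the same loci, where pure counting gives about 1.

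**Figure D4:**
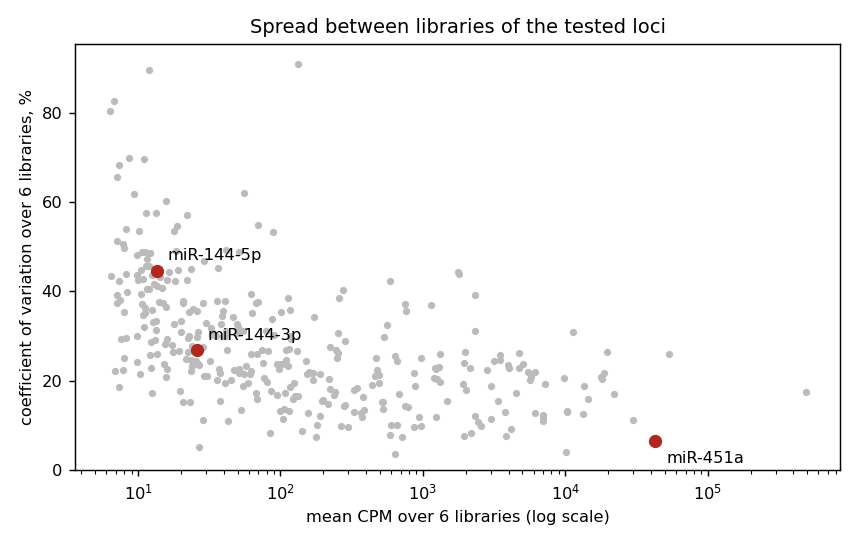
Coefficient of variation over the 6 libraries against mean CPM (log axis) for the 347 tested loci, with the members in red. miR-451a, at 6.49%, lies at the lower edge of the abundant loci, and both miR-144 arms lie among loci of similar level.

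In plasma work the ratio of miR-451a to miR-23a-3p, a miRNA little affected by red cells, serves as a gauge of red cell lysis, and no plasma limit was applied to these muscle vesicles. The ratio of counts was 4.199, 4.09 and 4.27 in young replicates 1, 2 and 3. In old replicates 1, 2 and 3 it was 4.21, 3.93 and 4.59, so that the young values lay inside the old range. The log2 ratio differed by 0.02 between the groups (2.06 ± 0.031 over 3 young and 2.08 ± 0.11 over 3 old libraries, SD, exact permutation p = 0.8). As a share of all counts, miR-451a took 4.19% ± 0.165 in the 3 young and 4.38% ± 0.223 in the 3 old libraries (SD, exact permutation p = 0.3). When the counts of miR-21a-5p were taken out of the total, that difference of 0.194 percentage points became -0.339, with old replicate 1 at 6.998% and the other libraries at 8.08% to 9.54%.

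Other miRNAs abundant in red cells were described beside the members. The list, which includes the members, held 11 mature miRNAs at 13 loci, and 9 loci were tested. By edgeR 0 of 9 passed in either direction and 0 of 9 had an unadjusted p below 0.05 (DESeq2 called 0), where 4.32% and 22.5% of all tested loci did. With so few loci a count of 0 past the adjusted threshold is close to the share over all loci. There were 4 positive and 5 negative log2 fold changes and a median of -0.08, against 0.04 over all tested loci. Without the members, 3 of 4 mature miRNAs (5 of 6 loci, since miR-16-5p and miR-92a-3p each have a pair of copies) had negative values, as did 47.6% of all tested loci. miR-16-5p, which acts on cell cycle genes, had 2682 ± 99.3 and 2453 ± 338 CPM at Mir16-1 (log2 fold change -0.13, adjusted p = 0.731). miR-92a-3p, of the miR-17-92 cluster, had 2209 ± 209 and 1708 ± 565 CPM at Mir92-1 (-0.37, adjusted p = 0.293). In the old libraries it stood at 2356 CPM in replicate 1 and at 1445 and 1323 CPM in replicates 2 and 3. Without old replicate 1 both copies of this miRNA passed edgeR's test, at -0.65 for Mir92-1 (adjusted p = 0.0035) and -0.88 for Mir92-2 (0.0273), and the list median became 0.11. In that fit 45 of 359 loci passed (12.5%), and 5.57% of loci passed as lower in old, against 15 of 347 with all libraries. miR-25-3p had 812 ± 28.7 and 768 ± 170 CPM (-0.08) and miR-363-3p had 10.8 ± 5.04 and 15.9 ± 6.74 CPM (0.58, adjusted p = 0.529). CPM values in these sentences are young before old, as mean ± SD of 3 libraries, and tests are edgeR's.

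**Figure D5:**
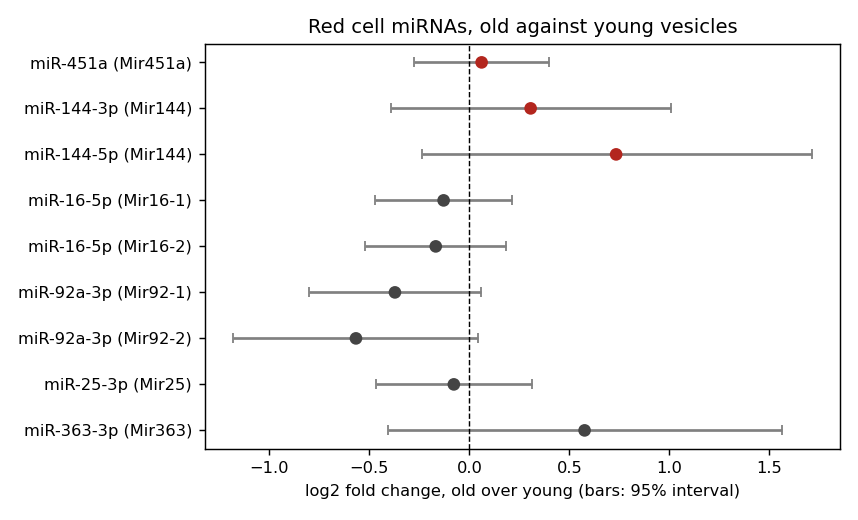
Log2 fold change, old over young, with 95% intervals for the 9 tested loci of the red cell list, members in red. Each interval includes 0, and that of miR-451a, from -0.28 to 0.40, is among the narrowest.

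The list could not be read in full. Both arms of miR-486a and of miR-486b, the other miRNA that dominates red cells and is also made in muscle, stood at 0 in all libraries. These 4 loci overlap each other on opposite strands, and 104 of the 106 overlapping loci in the table were at 0, so that their amount was not readable from the counts. Of the red cell markers miR-451a, miR-144-3p, miR-144-5p, miR-486a-5p and miR-486b-5p, 3 of 5 therefore had counts. Their summed level ran from 40575 to 42835 CPM in young and from 41265 to 48359 CPM in old, 99.9% of it miR-451a.

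Levels of the markers of other cells stand beside these values. Leukocyte and platelet markers (miR-223-3p, miR-142a-5p and miR-150-5p, with miR-142a-3p at 0) summed to 493 to 514 CPM in young and 491 to 627 CPM in old. The miR-142a-3p locus overlaps another, so that its amount was not readable and the sum leaves it out. Of the tested loci of these markers 0 of 3 passed (edgeR, and 0 by DESeq2), which is close to the 4.32% over all tested loci. Among them, 1 locus, miR-142a-5p, had an unadjusted p of 0.0335 (adjusted p = 0.181, edgeR), where 22.5% of all tested loci had one below 0.05. Its young and old values did not overlap. Skeletal muscle markers, miR-206-3p with miR-1a-3p, miR-133a-3p, miR-133b-3p, miR-499-5p and the scarce miR-208b-3p, summed to 50849 to 61142 CPM in young and 49519 to 90418 CPM in old, the highest being old replicate 1. Of their 6 tested loci, 4 passed, all of them higher in old (edgeR), where 3.46% of all tested loci passed in that direction. These were miR-1a-3p at Mir1a-1, both copies of miR-133a-3p and miR-499-5p, at 1.64-fold to 2.17-fold. In each the young and old values did not overlap, which held for 27.1% of all tested loci. The same was true of miR-133b-3p, which did not pass (adjusted p = 0.187, edgeR), but not of miR-206-3p. The endothelial miR-126a arms and the liver miRNA miR-122-5p were at 0, and each of these loci overlaps another. The part of blood, muscle or other cells in the member values was not tested.

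The loci whose pattern over the 6 libraries was most like a member were found by the Pearson correlation of log2 CPM among loci of at least 100 CPM on average. For miR-451a, over 156 loci, these were miR-223-3p (r = 0.89), miR-20a-5p (0.84) and miR-3068-5p (0.83). Each of the 3, like miR-451a, was highest in old replicate 3, and all values come from the same libraries. miR-223-3p, abundant in neutrophils and platelets, had 260, 247 and 257 CPM in young replicates 1, 2 and 3 and 246, 261 and 317 CPM in old replicates 1, 2 and 3. For miR-144-3p, over 157 loci, they were miR-218-5p at Mir218-1, miR-320-5p and miR-151-5p (r = 0.87 each). Unlike miR-144-3p, miR-320-5p passed as higher in old (log2 fold change 1.66, adjusted p = 0.028, edgeR). It had 86.9, 45.7 and 60.3 CPM in young replicates 1, 2 and 3 and 60.5, 357 and 189 CPM in old replicates 1, 2 and 3. miR-218-5p at Mir218-1 and miR-151-5p did not pass. miR-144-3p correlated with miR-451a at r = 0.52 and with its own opposite arm at r = 0.55 over the 6 libraries, with few counts behind each miR-144 value.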

How the data were processed

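Small RNA from muscle vesicles was counted in 6 libraries, and groups and replicate numbers came from the sample titles. The deposited table gives unnormalized read counts at each mature miRNA locus. They were made with featureCounts version 2.0.6, per the file headers, without strand, overlap or multi-mapping options, and the submitters' processing notes name BWA and mm10 for the alignment. The sources used here give no BWA version, adapter trimming or library kit. A read over 2 overlapping loci is left unassigned by that command. Totals were 904892 to 1706396 counts per library.

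Loci were named by exact position in the RefSeq miRNA table (1734 of 2110) or by position in GENCODE M21 miRNA genes (364), with a tolerance of 3 bases, and 12 stayed unnamed. GRCm38 and mm10 are the same assembly. Mir3107 is the RefSeq symbol of mir-486b.

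All loci were fitted with edgeR 4.0.16 in R 4.3.3 (quasi-likelihood, filterByExpr with minima of 10 counts and 15 in total, TMM), and p-values were adjusted over 347 tested loci. Intervals of fold changes come from the F statistic. Ratios and shares were tested by two-sided exact permutation over libraries (SciPy 1.17.1), and hairpins were folded with RNAfold 2.7.2 at 37 degrees. On counts simulated for old against young over 337 tested loci, calls were made at 26 of 82 loci for a 1.5-fold change, 46 of 53 for 2-fold and 57 of 57 for 4-fold, and at 2 of 145 unchanged loci. The simulation gave all loci the same dispersion (0.039) and changed most of them, where 4.32% of loci passed in the data. Recovery in the data can therefore be lower.

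Members, red cell list and marker lists were chosen with earlier results of these data known. Named loci were the members, loci within 1000 bases of them, the lists' members with a count and the 3 loci most correlated with miR-451a and with miR-144-3p. Alternatives were other scaling (DESeq2 size factors, none), no filter, DESeq2 1.42.0, summed copies, a replicate block, other added counts, pooled counts and leaving out each library.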

Additional observations from a re-analysis of the deposited data

How the results depend on the processing

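No alternative brought a member past the threshold on adjusted p. The unadjusted p of miR-144-5p fell below 0.05 without old replicate 1 (0.040, edgeR) and without young replicate 3 (0.024, edgeR). Leaving out 1 library at a time gave log2 fold changes of -0.026 to 0.12 for miR-451a (-0.026 without old replicate 3), 0.16 to 0.57 for miR-144-3p and 0.47 to 1.26 for miR-144-5p. It gave differences of -0.45 to 0.029 for the log2 ratio of miR-451a to miR-144-3p (0.029 without old replicate 2), -0.98 to -0.22 for the arm ratio and -0.041 to 0.071 for the ratio to miR-23a-3p (-0.041 without old replicate 3). The share of miR-451a differed by 0.115 to 0.323 percentage points without 1 library, and by -0.339 without the counts of miR-21a-5p. The red cell list had medians of -0.10 to 0.11 and 0 to 2 loci past the threshold without 1 library, and a median of 0.048 with identical copies summed. Over all loci 15 passed, against 5 (without old replicate 2) to 45 (without old replicate 1) and 6 with a replicate block. The labels name no pairing, and deviations of same-numbered libraries from their group means correlated at -0.14, 0.03 and -0.13. With so few libraries these values cannot show whether libraries were prepared in numbered sets. With the replicate block, miR-451a, miR-144-3p and miR-144-5p had log2 fold changes of 0.06, 0.26 and 0.77, none past the threshold. The log2 ratio differences of -0.17, -0.57 and 0.02 cannot change with such a block. Their p was 0.75, 0.5 and 0.75 by exact permutation of signs over same-numbered differences. The smallest p that this test allows is larger than the 0.1 of 3 against 3. The causes of these shifts were not tested. The miR-144 arms had 9 to 48 counts per library, and their chi-square against pure counting was 1.92 and 3.21 per degree of freedom; the part of depth in the width of their intervals was not tested.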
